A study of Mus with 10 samples.

Results

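This report concerns the transcription factors that shape type 1 innate lymphoid cells (ILC1s) and natural killer (NK) cells, as measured by RNA sequencing in liver ILC1s with and without the receptor NKp46. The factors were chosen by gene name from a list of 10. Of these, 9 were found among the 24564 genes of the count table, namely *Tbx21*, *Eomes*, *Runx3*, *Id2*, *Nfil3*, *Gata3*, *Tox*, *Zbtb16* and *Prdm1*, and all 9 passed the filter on low counts that left 11463 genes for testing. *Zfp683*, which encodes Hobit, was not analysed here. The cells came from C57BL/6 mice 6 to 8 weeks old. The control group comprised 5 libraries of Ncr1+/+ ILC1s, sorted as lineage-negative cells with NK1.1, NKp46 and CD49a but without CD49b. The other group comprised 5 libraries of Ncr1gfp/gfp ILC1s, in which *gfp* sits in place of *Ncr1*, and these were sorted with GFP instead of NKp46. The 2 gates therefore differed in the marker used, and this difference cannot be told apart from the genotype. The study describes the sequenced material as pools of RNA and does not state how many mice a library holds, so p-values measure the spread between libraries.

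ILC1s and NK cells are close relatives that share the T-box factor T-bet, encoded by *Tbx21*, and both make interferon-γ. In the mouse liver, conventional NK cells depend in addition on the related T-box factor Eomes, whereas ILC1s are largely described as Eomes-negative and rely on Hobit. Id2, Nfil3, Tox, Gata3 and PLZF, the product of *Zbtb16*, act in progenitors of innate lymphoid cells. Runx3 and Blimp-1, the product of *Prdm1*, act in the maturing and tissue-resident cells.

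Libraries held between 15796253 and 22623133 counts each. Levels are given as CPM, the count of a gene relative to the library total after scaling by trimmed mean of M values (TMM). Differences were tested by quasi-likelihood in edgeR, and p-values were adjusted over all tested genes by the Benjamini-Hochberg method. To be called, a gene had to exceed a fold change of 1.5 or lie below 0.7 with its adjusted p-value under 0.05. SE stands for the standard error of a log2 fold change. *Ncr1* was between 141 and 356 CPM in Ncr1gfp/gfp libraries and between 1913 and 2144 CPM in Ncr1+/+ libraries. *Itga1*, which encodes the sort marker CD49a, had 971 ± 35.1 CPM in Ncr1gfp/gfp and 779 ± 30.4 CPM in Ncr1+/+ libraries, without overlap. In bulk RNA, fewer cells that express a gene and less RNA per cell cannot be told apart.

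None of the 9 factors was called. Over all tested genes, 0.733% were called, 0.201% higher and 0.532% lower in Ncr1gfp/gfp ILC1s, so 0 of 9 is no result about the factors by itself. At an adjusted p-value under 0.05 with any fold change, 0 factors passed, against 1.35% of all tested genes, 0.567% higher and 0.785% lower. CPM values overlapped between the genotypes for every factor, whereas 3.11% of all tested genes had no overlap, 1.28% higher and 1.82% lower. At an unadjusted p-value under 0.05, the edgeR test found 2 factors, *Tbx21* and *Zbtb16*, against 11.4% of all tested genes. DESeq2 found 3 at this level, *Eomes* besides these 2, and called none. The likelihood ratio test found 2, *Eomes* and *Zbtb16*, and called none. With limma-voom the 2 were *Tbx21* and *Zbtb16*, and none was called. The share of all tested genes at this level was not counted for these other tests. By direction, 5 factors had a lower and 4 a higher fitted level in Ncr1gfp/gfp ILC1s, with a median log2 fold change of -0.05 against 0.00268 over all tested genes.

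The precision of the measurement sets what these differences could have been. For 7 of the 9 factors, all but *Eomes* and *Zbtb16*, the approximate 95% interval of the fold change lay wholly within 0.7 to 1.5. Such narrow intervals were found for 68.5% of all tested genes. The widest interval was that of *Eomes*, which had the lowest counts of the 9 factors.

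**Figure D1:**
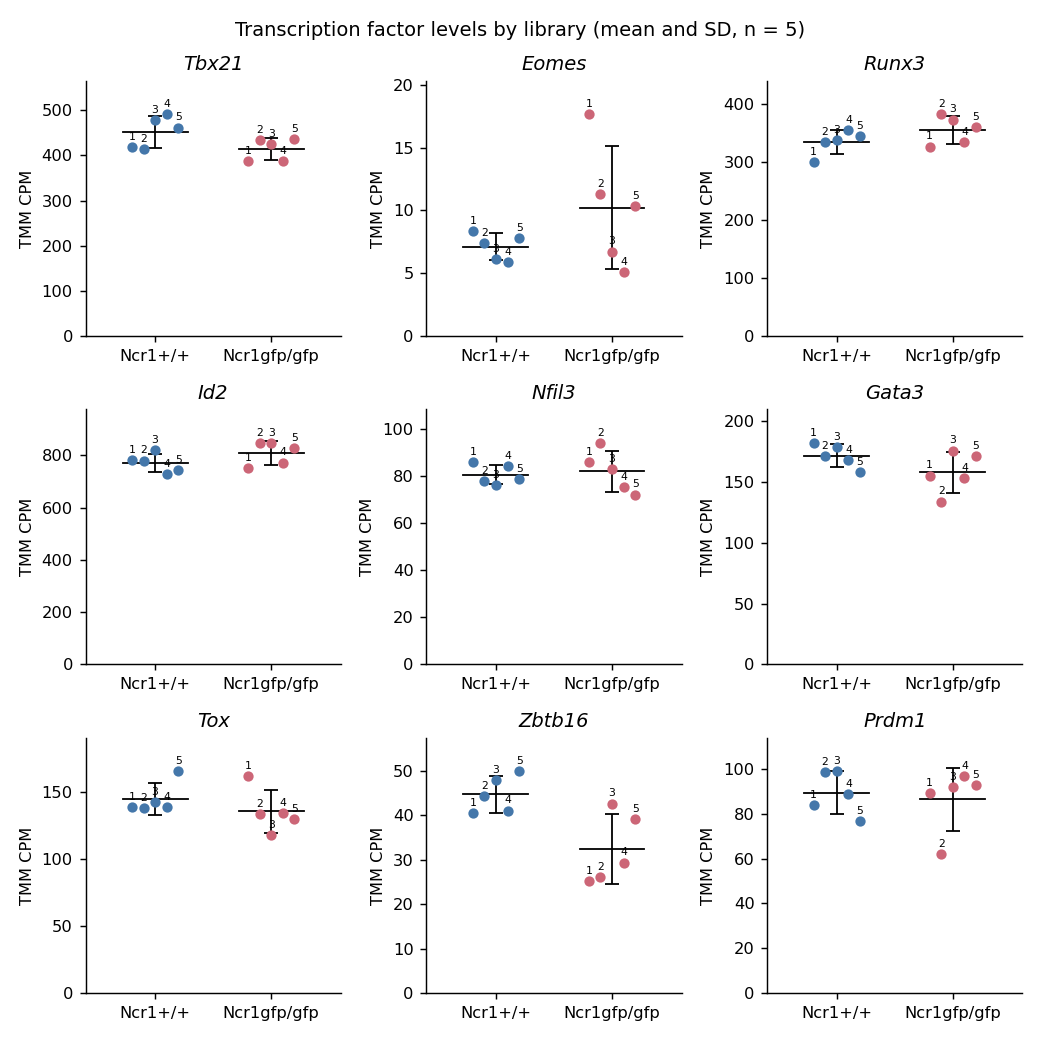
Level of each factor in TMM CPM (vertical axis, from 0) in the 5 Ncr1+/+ and 5 Ncr1gfp/gfp libraries; points are libraries with their replicate number, bars the mean and SD. *Eomes* spreads from 5.06 to 17.7 CPM and *Zbtb16* from 25.3 to 42.7 CPM in Ncr1gfp/gfp ILC1s, while the remaining factors lie closer together, apart from the single low *Prdm1* library at 61.9 CPM.

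Compared per kilobase of exon, the factors covered a wide range of levels, and their order was the same in both genotypes. *Id2* was highest, with a median of 613 CPM per kb in Ncr1+/+ and 649 CPM per kb in Ncr1gfp/gfp ILC1s. *Tbx21* followed at 181 and 166 CPM per kb, then *Runx3* at 86.6 and 92.4 CPM per kb. Averaged over all libraries, 99.7% of the tested genes lay below *Id2* on this scale, 98.3% below *Tbx21* and 95.4% below *Runx3*. *Gata3* and *Tox* were next, with medians of 53.2 and 48.6 CPM per kb in Ncr1+/+ ILC1s, and their ranges overlapped in both genotypes, so that this pair did not differ beyond its spread. *Nfil3* had a median of 39.5 CPM per kb in Ncr1+/+ ILC1s, and its range overlapped that of *Tox* in Ncr1gfp/gfp ILC1s only. *Prdm1*, at 17.1 CPM per kb, and *Zbtb16*, at 8.69 CPM per kb in Ncr1+/+ ILC1s, stood apart from their neighbours. *Eomes* was lowest, with a median of 2.00 CPM per kb in Ncr1+/+ and 2.79 CPM per kb in Ncr1gfp/gfp ILC1s, and 19.1% of the tested genes lay below it.

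**Figure D2:**
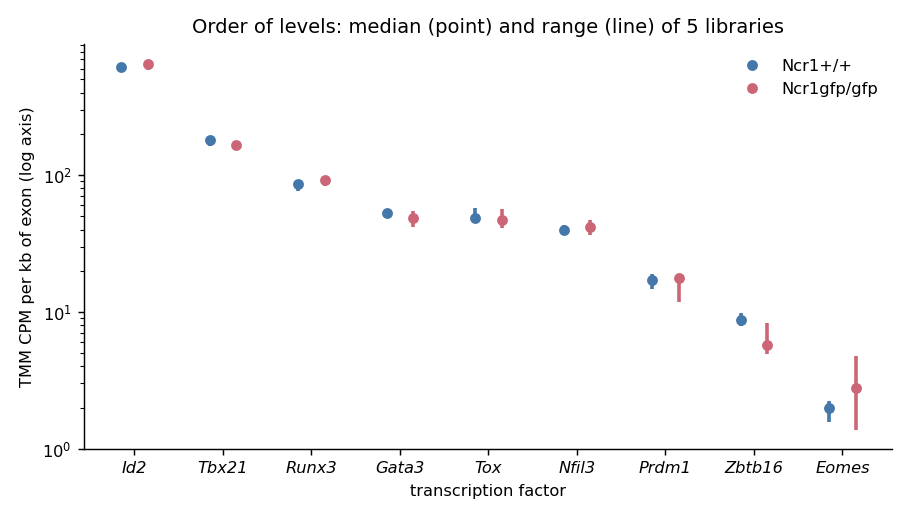
Median (point) and range (line) of 5 libraries for each factor in TMM CPM per kb of exon, on a log axis, in Ncr1+/+ and Ncr1gfp/gfp ILC1s. The order from *Id2* to *Eomes* is the same in both genotypes.

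The T-box pair was examined first. The *Tbx21* gene spans chromosome 11, positions 96959321 to 96976645 (minus strand), in coordinates whose genome build the table does not name. There were 418, 413, 478, 491 and 461 CPM in Ncr1+/+ replicates 1 to 5 and 387, 434, 424, 387 and 435 CPM in Ncr1gfp/gfp replicates 1 to 5. The groups overlapped, since Ncr1+/+ replicates 1 and 2 lay below 3 of the Ncr1gfp/gfp libraries. The mean was 414 ± 24.5 CPM in Ncr1gfp/gfp and 452 ± 35.2 CPM in Ncr1+/+ ILC1s (n = 5 each, ± SD). Its log2 fold change was -0.13 (SE 0.06, edgeR adjusted p = 0.399), with an interval of the fold change from 0.840 to 0.996. In the fits that left out each library in turn, the adjusted p-value was between 0.257 and 0.684 (edgeR).

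*Eomes* (chromosome 9, positions 118387307 to 118395250, plus strand) had 8.35, 7.41, 6.10, 5.85 and 7.78 CPM in Ncr1+/+ replicates 1 to 5. In Ncr1gfp/gfp replicates 1 to 5 it had 17.7, 11.3, 6.72, 5.06 and 10.4 CPM. Replicates 1, 2 and 5 of Ncr1gfp/gfp ILC1s were above every Ncr1+/+ library, whereas replicate 4 was below every one of them. These levels rested on 85 to 278 counts and lay well above the 0.132 to 0.19 CPM to which 3 counts correspond. The log2 fold change was 0.52 (SE 0.26, edgeR adjusted p = 0.455), and the interval of the fold change ran from 0.992 to 2.08. The interval thus holds both no change and a rise of more than 1.5-fold. Without Ncr1gfp/gfp replicate 1 the log2 fold change was 0.24 (edgeR adjusted p = 0.784).

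The spread of *Eomes* was larger in Ncr1gfp/gfp ILC1s, where the coefficient of variation was 47.8% against 15.2% in Ncr1+/+ ILC1s. Counting error alone gives 6.00% to 10.8% at the counts of this gene. Of the 9 factors, 8 had a larger SD of log2 CPM in Ncr1gfp/gfp ILC1s, a direction shared by 56% of all tested genes. The exception was *Tbx21*, at 0.09 in Ncr1gfp/gfp and 0.11 in Ncr1+/+ ILC1s. Whether the spread differed between the genotypes was not tested.

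Because the balance of both T-box factors separates NK cells from ILC1s, the level of *Eomes* per kb was also expressed as a share of that of *Tbx21* in the same library. It was 1.37%, 1.23%, 0.877%, 0.819% and 1.16% in Ncr1+/+ replicates 1 to 5. In Ncr1gfp/gfp replicates 1 to 5 it was 3.13%, 1.79%, 1.09%, 0.897% and 1.63%. *Tbx21* transcripts thus exceeded those of *Eomes* by far in every library of both genotypes. The mean log2 ratio was -6.01 ± 0.70 in Ncr1gfp/gfp and -6.55 ± 0.32 in Ncr1+/+ ILC1s (n = 5 each, ± SD). The difference of 0.53 lay within the spread of libraries taken as unpaired (p = 0.159 in a two-sided exact permutation test). Such a test of 5 libraries against 5 cannot give a p-value below 0.00794. It takes no account of the replicate number. The share was higher in each Ncr1gfp/gfp library than in the Ncr1+/+ library of the same number. The replicate numbers also ranked alike by share in both genotypes, with replicate 1 highest and replicate 4 lowest. Both points were seen afterwards and were not tested. The labels do not state that libraries of the same number were paired. With the replicate number as a block, the log2 fold change of *Eomes* itself was 0.42 (edgeR adjusted p = 0.478).

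Markers of NK cells were set beside *Eomes*. Their 17 genes were listed with earlier results of these data known, and 14 were tested. The summed level of the 17 was between 4820 and 6272 CPM in Ncr1gfp/gfp and between 4223 and 4578 CPM in Ncr1+/+ ILC1s. *Gzma*, which encodes granzyme A and is not restricted to NK cells, made up most of this sum, at 3976 ± 641 and 2931 ± 140 CPM (n = 5 each, ± SD). Of the 14 tested genes, *Itgam*, which encodes CD11b, was called higher and *Emb*, which encodes embigin, was called lower. Of all tested genes, 0.201% were called higher and 0.532% lower. The median log2 fold change of the list was 0.00625. *Klrg1*, *S1pr5* and *Zeb2*, which mark mature NK cells, had means between 3.76 and 7.05 CPM in both genotypes, *Cma1* was below 0.1 CPM on average, and *Klra4* was at 0 in every library. Ncr1gfp/gfp replicate 1, with the highest *Eomes* level, also had the highest level of 8 of the 14 tested markers within its genotype, *Itga2* and *Itgam* among them, against 1, 3, 2 and 0 of them in replicates 2 to 5. This count was made after the values were seen, and its part in the *Eomes* level was not tested.

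**Figure D3:**
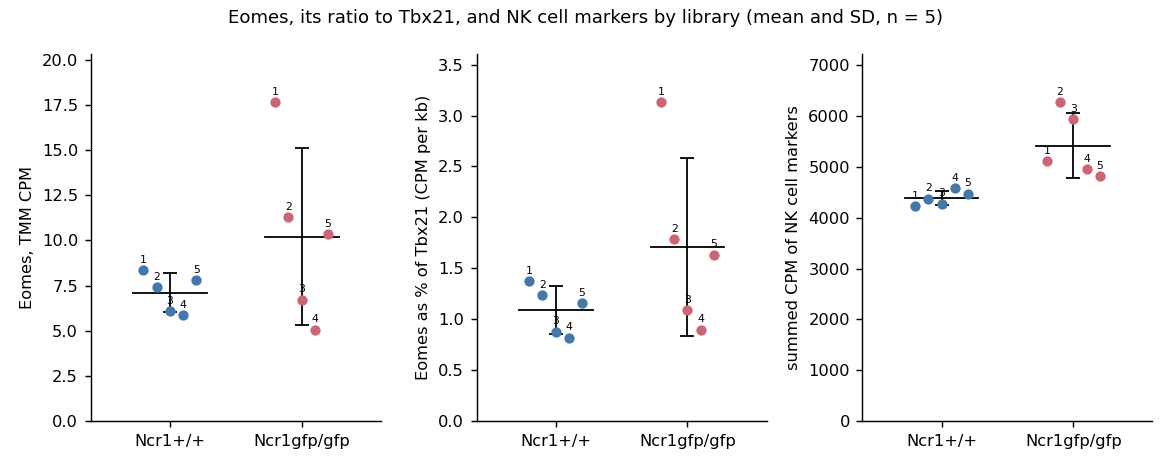
From left to right, *Eomes* in TMM CPM, *Eomes* per kb as a percentage of *Tbx21* per kb, and the summed CPM of 17 NK cell markers, by library with replicate numbers, mean and SD (n = 5). Ncr1gfp/gfp replicate 1 is highest in *Eomes* (17.7 CPM) and in its share of *Tbx21* (3.13%), but not in the summed markers, where replicate 2 reaches 6272 CPM.

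*Zbtb16* encodes PLZF, a zinc finger factor of innate lymphoid progenitors and of innate-like T cells. The gene spans chromosome 9, positions 48462402 to 48644050 (minus strand). It had 40.5, 44.4, 48.0, 41.1 and 49.96 CPM in Ncr1+/+ replicates 1 to 5 and 25.3, 26.1, 42.7, 29.4 and 39.1 CPM in Ncr1gfp/gfp replicates 1 to 5. Only Ncr1gfp/gfp replicate 3 reached into the range of the Ncr1+/+ libraries, where it lay above replicates 1 and 4. The mean was 32.5 ± 7.89 CPM in Ncr1gfp/gfp and 44.8 ± 4.15 CPM in Ncr1+/+ ILC1s (n = 5 each, ± SD).

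The log2 fold change of *Zbtb16* was -0.46 (SE 0.13, edgeR adjusted p = 0.0893), with an interval of the fold change from 0.601 to 0.877. It had the smallest p-value of the 9 factors but did not pass the adjustment. The adjusted p-value ranged from 0.0204 to 0.217 over 19 alternatives and was under 0.05 in 6 of them, DESeq2 (0.0350) and edgeR's likelihood ratio test (0.0366) included. Without Ncr1gfp/gfp replicate 3, the fold change was 0.669 with an adjusted p-value of 0.0241 (edgeR's quasi-likelihood test), which would be a call. The same library had the highest hepatocyte markers of its genotype, and without it and Ncr1+/+ replicate 1, the corresponding library of the other genotype, the log2 fold change was -0.62 (edgeR adjusted p = 0.0301).

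Markers of T cells, some of which can express PLZF, were set beside *Zbtb16*. Of the 11 listed genes, 8 were tested, all 8 had a higher fitted level in Ncr1gfp/gfp ILC1s, and *Cd3e* and *Cd8a* were called. Of all tested genes, 49.3% had a lower fitted level and 0.201% were called higher. Their summed level was between 792 and 1029 CPM in Ncr1gfp/gfp and between 607 and 747 CPM in Ncr1+/+ ILC1s. Most of it came from *Cd3g*, with 687 ± 74.6 and 501 ± 53.1 CPM (n = 5 each, ± SD). The list is not restricted to T cells. It holds *Cd247*, at 89.3 and 77.3 CPM on average, which encodes CD3ζ, an adaptor that the paper places downstream of NKp46. Neither the sum nor the count of higher genes therefore measures T cells alone. *Cd8b1* was below 1 CPM on average in both genotypes. Ncr1gfp/gfp replicate 3, highest of its genotype in *Zbtb16*, had the highest *Cd3d*, *Cd3e* and *Cd8a* of all libraries. They were at 22.8, 38.8 and 36.4 CPM there, as was seen afterwards. The other tested T cell genes were highest in other libraries. The part of these transcripts in the *Zbtb16* level was not tested.

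**Figure D4:**
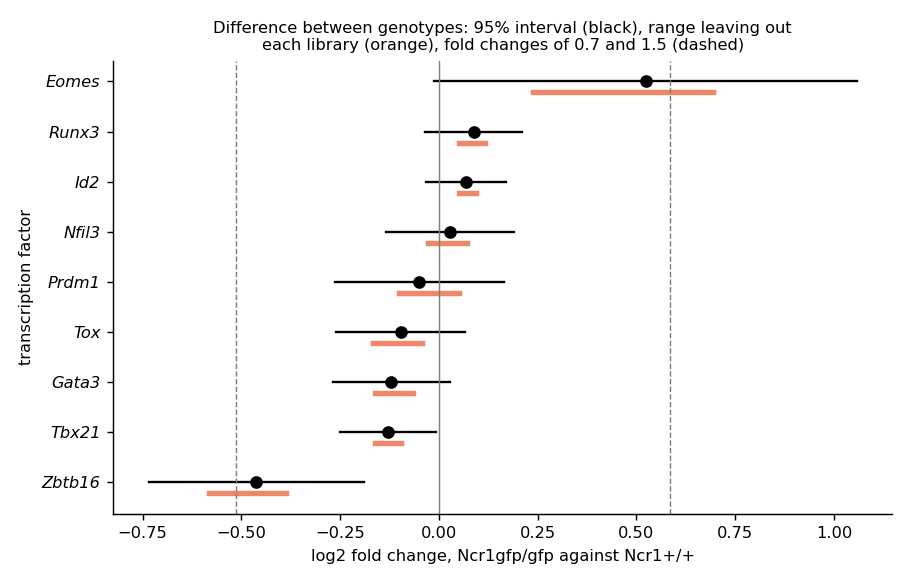
Log2 fold change of each factor, Ncr1gfp/gfp against Ncr1+/+ (horizontal axis), with its approximate 95% interval (black) and the range of the fits that left out each library in turn (orange); dashed lines mark fold changes of 0.7 and 1.5. The intervals of *Tbx21* and *Zbtb16* lie below 0, that of *Zbtb16* crosses the lower line, and that of *Eomes* crosses the upper line.

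Of the other factors of innate lymphoid progenitors, *Id2*, *Nfil3* and *Gata3* had fold change intervals within 0.7 to 1.5. *Id2* (chromosome 12, positions 25778664 to 25780957, minus strand), which encodes an inhibitor of E proteins needed by innate lymphoid cells, had 808 ± 44.1 CPM in Ncr1gfp/gfp and 771 ± 35.8 CPM in Ncr1+/+ ILC1s (n = 5 each, ± SD). Its log2 fold change was 0.07 (edgeR adjusted p = 0.666), and the interval of the fold change, from 0.978 to 1.13, was the narrowest of the 9 factors on the log2 scale. *Nfil3* (chromosome 13, positions 53062578 to 53076408, minus strand), which encodes a basic leucine zipper factor of early NK and ILC development, ranged from 72.1 to 94.0 CPM in Ncr1gfp/gfp and from 76.1 to 85.7 CPM in Ncr1+/+ ILC1s, with a fold change interval of 0.911 to 1.14. *Gata3* (chromosome 2, positions 9778705 to 9800227, minus strand), a zinc finger factor required for the ILC lineages and for ILC1s with IL-7Rα, ranged from 134 to 176 and from 158 to 182 CPM, with an interval of 0.830 to 1.02. The adjusted p-values of *Nfil3* and *Gata3* were 0.942 and 0.571 (edgeR).

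*Tox* (chromosome 4, positions 6614533 to 6917870, minus strand) encodes a high-mobility-group factor that innate lymphoid progenitors need. It had 138, 138, 142, 139 and 165 CPM in Ncr1+/+ replicates 1 to 5 and 161, 133, 118, 134 and 130 CPM in Ncr1gfp/gfp replicates 1 to 5. One library of each genotype was high, Ncr1+/+ replicate 5 and Ncr1gfp/gfp replicate 1, and the groups overlapped. The log2 fold change was -0.10 (SE 0.08, edgeR adjusted p = 0.736), with a fold change interval of 0.836 to 1.05. Without Ncr1gfp/gfp replicate 1 the groups did not overlap and the log2 fold change was -0.17 (edgeR adjusted p = 0.368).

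Of the factors of mature and resident cells, *Prdm1* (chromosome 10, positions 44156980 to 44178554, minus strand) showed a single low library. It had 83.9, 98.6, 99.0, 88.9 and 76.8 CPM in Ncr1+/+ replicates 1 to 5 and 89.2, 61.9, 92.0, 96.7 and 92.9 CPM in Ncr1gfp/gfp replicates 1 to 5. Apart from Ncr1gfp/gfp replicate 2, every Ncr1gfp/gfp library lay within the range of the Ncr1+/+ libraries. The log2 fold change was -0.05 (SE 0.10, edgeR adjusted p = 0.923) and turned to 0.05 without that library (edgeR adjusted p = 0.893). *Runx3* (chromosome 4, positions 134676560 to 134733905, plus strand), a Runt-domain factor that acts with T-bet, ranged from 326 to 382 CPM in Ncr1gfp/gfp and from 300 to 355 CPM in Ncr1+/+ ILC1s. Its log2 fold change was 0.09 (edgeR adjusted p = 0.638), with an interval of the fold change from 0.976 to 1.16.

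To place the 9 factors among their relatives, 32 other regulators of NK cells and ILCs were listed, of which 31 were tested. They were listed with earlier results of these data known. In this list 22 genes had a lower and 9 a higher fitted level in Ncr1gfp/gfp ILC1s. Of all tested genes, 49.3% had a lower fitted level and 0.532% were called lower. The median log2 fold change of the list was -0.07. One gene was called, *Tcf7*, which encodes TCF-1, a factor of early ILC progenitors. It had 50.1 ± 12.4 CPM in Ncr1gfp/gfp and 77.2 ± 14.0 CPM in Ncr1+/+ ILC1s (n = 5 each, ± SD), a log2 fold change of -0.63 (edgeR adjusted p = 0.0247), and the ranges of the genotypes overlapped. The call was lost with DESeq2 (adjusted p = 0.0577) and in edgeR without Ncr1gfp/gfp replicate 2, 3 or 4 or Ncr1+/+ replicate 1 or 3, with adjusted p-values between 0.0592 and 0.0837 and log2 fold changes between -0.61 and -0.52. It was also lost without the libraries with the highest hepatocyte markers, at a log2 fold change of -0.52 (edgeR adjusted p = 0.146). At any fold change, 6 of the 31 genes had an adjusted p-value under 0.05, all lower, against 0.785% of all tested genes in this direction. Leaving out single libraries gave counts between 3 and 9, with 3 without Ncr1gfp/gfp replicate 2 or Ncr1+/+ replicate 1 or 3. Besides *Tcf7* these were *Maf*, *Ikzf2*, *Runx1*, *Ets1* and *Ahr*, which are named here after their values were seen, with log2 fold changes of -0.48, -0.44, -0.37, -0.21 and -0.31. *Runx1*, a relative of *Runx3*, had 165 ± 18.7 and 213 ± 21.2 CPM (n = 5 each, ± SD), and every Ncr1gfp/gfp library was below every Ncr1+/+ library. *Cbfb*, which encodes the partner of both Runx factors, had a log2 fold change of 0.12 (edgeR adjusted p = 0.466). Whether the other regulators differed from the 9 factors as a group was not tested.

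**Figure D5:**
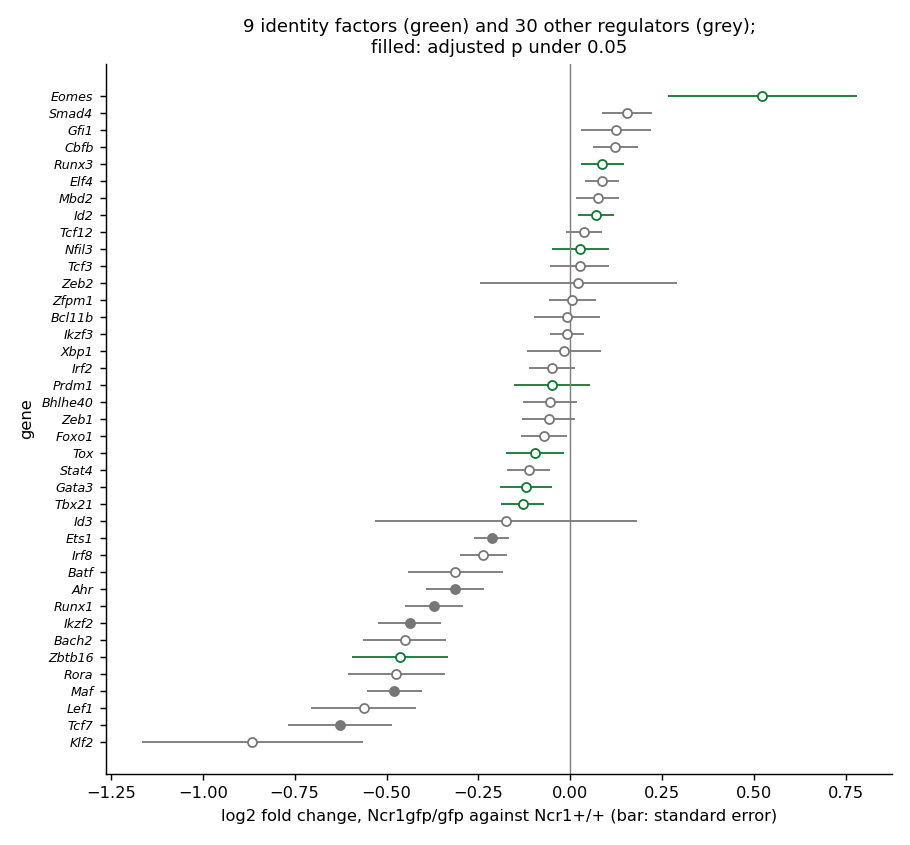
Log2 fold change, Ncr1gfp/gfp against Ncr1+/+ (horizontal axis), with its standard error for the 9 factors (green) and 30 of the tested other regulators (grey); filled points have an adjusted p-value under 0.05. The filled points are 6 other regulators, all below 0, and every one of the 9 factors is open.

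Genes under the control of these factors and markers of ILC1s were counted in the same way. These lists, too, were chosen with earlier results of these data known. Of 18 listed genes that T-bet or Eomes are known to regulate, which include *Runx3* itself, all were tested, 7 were lower and 11 higher in fitted level, and the median log2 fold change was 0.0154. *Il18r1* was called lower, as were 0.532% of all tested genes. *Gzmb*, which encodes granzyme B, had an adjusted p-value of 0.00813 (edgeR) at a log2 fold change of 0.55, under the fold change needed for a call. Of 13 listed genes that Hobit or Blimp-1 regulate, which include *Eomes*, 12 were tested, with 6 lower and 6 higher, and *Tcf7* was called lower. Of 18 listed ILC1 markers, 5 were called lower and 1 higher, against 0.532% and 0.201% of all tested genes. The ILC1 list holds *Il2ra* and *Il7r*, which the study itself reported as lower from these data, so this count is no independent result. The lower genes were *Gpr183*, *Il2ra*, *Tmem176b*, *Tmem176a* and *Il7r*, with log2 fold changes of -1.45, -1.24, -1.22, -1.16 and -0.97, and the higher gene was *Gzmc*, which encodes granzyme C, at 0.72. *Il2ra* and *Il7r* encode receptor chains for IL-2 and IL-7. *Cd200r1*, which encodes the ILC1 marker CD200R, was not called and was between 120 and 157 CPM in all libraries.

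Markers of other cells in the liver were mostly low. Of the ILC2 and ILC3 lists, *Il5*, *Il22*, *Il17a* and *Il17f* were at 0 in every library. *Kit* of the ILC3 list was called lower, as were 0.532% of all tested genes. The summed ILC2 list was between 6.13 and 9.53 CPM in Ncr1gfp/gfp and between 11.1 and 15.02 CPM in Ncr1+/+ libraries, without overlap. This difference came from *Arg1*, at 1.86 and 6.66 CPM on average (edgeR adjusted p = 0.071), while *Klrg1*, the other tested gene of the list, was at 5.34 and 5.31 CPM. The summed ILC3 list was between 15.7 and 29.3 CPM in Ncr1gfp/gfp and between 25.3 and 43.3 CPM in Ncr1+/+ libraries. No gene of the lists for ILC2s, B cells, macrophages, hepatocytes, endothelium or erythroid cells was called by edgeR. Summed hepatocyte markers were between 123 and 213 CPM in Ncr1gfp/gfp and between 135 and 180 CPM in Ncr1+/+ libraries. Most of this came from *Trf*, at 135 and 138 CPM on average. *Alb*, the albumin gene of hepatocytes, was 38.0 CPM in Ncr1gfp/gfp replicate 3 and 28.03 CPM in Ncr1+/+ replicate 1, and at most 4.69 CPM in the other libraries. Summed macrophage markers were between 12.5 and 55.8 CPM in Ncr1gfp/gfp and between 16.7 and 82.0 CPM in Ncr1+/+ libraries. Summed B cell and erythroid markers stayed below 10 CPM in every library. The erythroid sum came from *Alas2* alone, since the 4 listed globin genes were at 0 in every library, so it says little of erythroid RNA. Endothelial markers summed to between 113 and 152 CPM, mostly from *Pecam1*, which lymphocytes also express. The part of these transcripts in the levels of the 9 factors was not tested.

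For both T-box factors, the genes that deviated most alike from the genotype means over the 10 libraries were sought among 11454 genes. For *Tbx21* these were *Hist1h4d*, *Mb21d1* and *Hist1h4f*, with Pearson's r between 0.921 and 0.931, and the histone genes are copies of a family whose reads could be shared. For *Eomes* they were *Cep78*, *E2f2* and *1700086O06Rik*, with r between 0.941 and 0.955, of which the last 2 had means of about 2 CPM or less. High values of r arise when so many genes are searched over so few libraries, and these names are a description only.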

How the data were processed

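RNA-seq counts of 5 Ncr1+/+ and 5 Ncr1gfp/gfp libraries of sorted liver ILC1s were analysed, grouped by the genotype in the labels. The authors prepared libraries from 2 ng of RNA with a SMART-Seq v4 kit, sequenced single reads, trimmed them with Trimmomatic and FASTP, aligned with STAR and obtained gene counts from HTSeq at default parameters. The authors deposited the counts without normalization, together with gene coordinates and exon lengths. The methods name mm10, but the coordinates of the table do not match it and are printed unchanged, without a build. None of the 9 factors overlapped another gene of the table. Library totals ranged from 15796253 to 22623133. The floor of 3 counts and the counting error of *Eomes* cover counting alone, since reads amplified without molecular identifiers are not independent.

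After filterByExpr and TMM normalization, edgeR 4.0.16 (R 4.3.3) fitted genotype alone and tested it by quasi-likelihood, with Benjamini-Hochberg adjustment over 11463 genes. A call needed a fold change above 1.5 or below 0.7 besides an adjusted p-value under 0.05. Standard errors were derived from the F statistic and 95% intervals from them, so these intervals cover the spread between libraries. For single values, exact two-sided permutation tests were used. On simulated counts for 11320 genes of this comparison, 84 of 100 genes with a 2-fold and 95 of 100 with a 4-fold change were recovered with their direction, and 6 of 11120 genes left unchanged were called. Within genotypes, all 20 library pairs differed beyond sampling noise (chi-square per gene between 9.18 and 24.0). Alternatives were DESeq2 1.42.0, limma-voom with quality weights per library (limma 3.58.1), the likelihood ratio test of edgeR, RLE and upper-quartile normalization, other filters, the replicate number as a block, and leaving out each library. Leaving out the library with the highest hepatocyte markers in each genotype was added after seeing the data. The genes named are the 9 factors, the 3 genes most alike to *Tbx21* and *Eomes* after adding 0.5 CPM, called genes of the marker and target lists, and *Ncr1*, with further genes chosen after their values were seen. The factors and lists were chosen with earlier results of these data known. A planned ratio of *Zfp683* to *Prdm1* was not run. One further gene of the lists, included in their counts and sums, is not reported here.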

Additional observations from a re-analysis of the deposited data

Results flagged for a closer look

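In each group of 5 libraries, the gap between the highest or lowest value and its nearest neighbour was compared with the range of the group. Of 30 groups examined, 2 passed the limit of 0.71, where chance gives about 1.5. *Prdm1* was 61.9 CPM in Ncr1gfp/gfp replicate 2, against 89.2 CPM in the next library of that genotype. *Tox* was 165 CPM in Ncr1+/+ replicate 5, against 142 CPM in the next. The 17.7 CPM of *Eomes* in Ncr1gfp/gfp replicate 1 did not pass this limit.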

How the results depend on the processing

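Over 19 alternatives for each of the 9 factors, 168 of 171 log2 fold changes kept their sign, and 165 stayed on the same side of an adjusted p-value of 0.05. The other 6 were all of *Zbtb16*, and the cause was not tested. Its log2 fold change and adjusted p-value were -0.46 and 0.0350 with DESeq2, -0.46 and 0.0366 with edgeR's likelihood ratio test, -0.46 and 0.0204 without a filter on low counts, -0.58 and 0.0241 without Ncr1gfp/gfp replicate 3, and -0.62 and 0.0301 without the libraries with the highest hepatocyte markers, an alternative chosen after seeing the data. In each of these settings 1 factor, in place of 0, had an adjusted p-value under 0.05. The count of called factors, 0, became 1 in the last 2 of these settings and stayed 0 in the other settings. Leaving out each library in turn gave between 0 and 1 called factors, between 0 and 1 factors with an adjusted p-value under 0.05, and between 0 and 1 factors without overlap of CPM. Without Ncr1gfp/gfp replicate 3, *Zbtb16* was the factor in all 3 counts, as it was without the libraries with the highest hepatocyte markers. Without Ncr1gfp/gfp replicate 1, *Tox* was the factor without overlap.

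Over genes as a whole, same-numbered libraries did not deviate together (correlations from -0.03 to 0.05), but the *Eomes* share of *Tbx21* ranked them alike. With the replicate number as a block, the log2 fold change of *Zbtb16* was -0.49 (edgeR adjusted p = 0.0268), so that 1 factor passed an adjusted p-value of 0.05 and 0 were called, and 2 other regulators were called in place of 1. The log2 ratio of *Eomes* to *Tbx21* stayed between 0.28 and 0.73 higher in Ncr1gfp/gfp ILC1s without each library in turn, with p-values from 0.0556 to 0.317 (two-sided exact permutation test). The low counts of *Eomes*, 85 to 278 per library, and its spread in Ncr1gfp/gfp ILC1s limit what can be said of it.

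Over all tested genes, 84 were called, against 138 with the likelihood ratio test, 131 without a filter on low counts, 126 with DESeq2, and 60 to 98 without each library. Of the other regulators, 1 was called, against 2 with the likelihood ratio test or at least 10 counts in every library, 3 without a filter and 0 without the libraries with the highest hepatocyte markers, and 0 to 3 without each library. The 6 with an adjusted p-value under 0.05 became 10 with the likelihood ratio test or without a filter, 3 without the libraries with the highest hepatocyte markers, and 3 to 9 without each library. Called Hobit and Blimp-1 targets, 1, became 0 with DESeq2 or without the libraries with the highest hepatocyte markers, 2 without a filter, and 0 to 2 without each library. Called NK markers, 2, became 1 without the libraries with the highest hepatocyte markers and 1 to 3 without each library. Called T-box targets, 1, were 1 to 3 without each library, and called ILC1 markers were 6 without any one library. The alternatives planned for the ratio of *Zfp683* to *Prdm1* were not run.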
